A study of Mus musculus with 38 samples.

Results

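The NuRD complex subunits described here are 10 genes, chosen by name as the partner complex of SALL4: Chd4, Mta1, Mta2, Mta3, Hdac1, Hdac2, Rbbp4, Rbbp7, Gatad2a and Mbd3. All 10 were found in the bulk RNA-seq table of 17 libraries, which lists 35976 genes, in a second bulk table of 8 libraries with 37108 genes, and in the single-cell table with 20695 genes. On mm10 they lie as follows, Chd4 at chr6:125095981-125130591, Mta1 at chr12:113098278-113137206, Mta2 at chr19:8941875-8952303, Mta3 at chr17:83706163-83821516, Hdac1 at chr4:129516104-129542713, Hdac2 at chr10:36974544-37001889, Rbbp4 at chr4:129307100-129335370, Rbbp7 at chrX:162760402-162779092, Gatad2a at chr8:69907076-69996384 and Mbd3 at chr10:80392539-80399550. In all of these bulk libraries each of the 10 was at 1 FPKM or more, a read count scaled by the length of the transcript and the mapped reads of the library.

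The study reprogrammed mouse embryonic fibroblasts (MEFs) taken at E13.5 with sets of transcription factors, and asked how BMP4, a signalling protein of the TGF-beta family, moves SALL4 cells between the pluripotent and the primitive endoderm fate. It holds 23 bulk RNA-seq, 2 scRNA-seq, 9 ATAC-seq and 4 CUT&Tag samples, with 1 sample per condition. JGES cells carried Jdp2, Glis1, Esrrb and Sall4 and were taken at day 0 and, without BMP4 (BMP4-) or with it at 10 ng/ml (BMP4+), at days 1, 3, 5 and 7. JGE cells lacked Sall4, JGEO cells had Oct4 in its place and JGESO cells had both, each at day 7 with and without BMP4. In a separate experiment MEFs received SALL4-WT or SALL4-delN12 alone, and were taken at days 1, 5, 9 and 11 for RNA-seq and ATAC-seq and at day 6 for CUT&Tag of SALL4 and of H3K27ac, an acetyl mark of active promoters and enhancers. The RNA-seq libraries of this experiment were without BMP4, and no BMP4 dose is listed for its ATAC-seq and CUT&Tag samples. SALL4-delN12 lacks the first 12 residues, through which SALL4 binds NuRD. All factors were exogenous, and Sall4 transcripts at day 0 of JGES were already at 650 FPKM. The FPKM does not tell delivered from endogenous Sall4. The JGES and SALL4 libraries are labelled as total RNA and the JGE, JGEO and JGESO libraries as polyA RNA, so that the factor set and the kind of RNA cannot be told apart wherever JGES is set against the others. Fibroblast markers were present at the start of the courses, with Col1a1 at 524 FPKM in JGES at day 0 and at 472 and 1666 at day 1 of SALL4-WT and SALL4-delN12. With 1 library per condition there is no replicate check of any difference, no test between conditions was made, and a difference is described by its size, beside the same measure over all genes. A change is a difference of log2(FPKM + 1), and a gene counts as past the threshold at 1.5-fold on that scale.

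NuRD joins an ATP-driven nucleosome remodeller to histone deacetylases in 1 complex. CHD4 is the remodelling ATPase, HDAC1 and HDAC2 remove acetyl groups from histone tails, MTA1, MTA2 and MTA3 are alternative scaffolds that hold the deacetylases, RBBP4 and RBBP7 bind histones, and GATAD2A and MBD3 link the deacetylases to the remodeller. Several zinc-finger factors recruit the complex through a short motif at their N-terminus, among them SALL4, its relatives SALL1 and SALL2, the FOG proteins ZFPM1 and ZFPM2, and BCL11A and BCL11B. In embryonic stem cells NuRD is known for damping genes of pluripotency so that cells can leave that state.

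The 36 coding bases that SALL4-delN12 is without are shown first, since that stretch is the link between SALL4 and the 10 subunits. The sequences are those of the GENCODE transcripts on mm10, and capitals mark the bases that a gene shares with Sall4 at the same position. Sall4 itself, in lower case, lies at chr2:168766994-168767029 on the minus strand.
Sall4: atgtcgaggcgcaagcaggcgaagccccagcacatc
Sall2: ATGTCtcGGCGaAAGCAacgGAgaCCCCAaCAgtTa
Zfpm2: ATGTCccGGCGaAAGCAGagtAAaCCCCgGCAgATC
Bcl11a: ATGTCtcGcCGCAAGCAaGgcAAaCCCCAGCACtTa
Of the 36 bases, Bcl11a at chr11:24078391-24078426 and Zfpm2 at chr15:40655544-40655579 shared 27 each, and Sall2 at chr14:52328140-52328175 shared 24. Zfpm1 and Bcl11b, not printed, shared 26 each.

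By FPKM the 10 subunits were expressed at very different levels, from Rbbp7 at the top to Mta3 at the bottom. By their median FPKM over the 17 libraries they ranked Rbbp7 at 97.1, Mbd3 at 81.4, Chd4 at 69.4, Hdac2 at 42.0, Mta2 at 36.8, Mta1 at 34.4, Rbbp4 at 31.97, Hdac1 at 28.0, Gatad2a at 25.0 and Mta3 at 4.72. The ranges of neighbours in this order overlapped throughout, from Rbbp7 (65.1 to 154 FPKM) and Mbd3 (55.2 to 139) to Hdac1 (20.04 to 47.3) and Gatad2a (16.0 to 34.2), with the exception of Mta3, which at 2.98 to 11.4 FPKM lay below the lowest value of every other member. Within each paralog family 1 gene made up most of the summed FPKM in all 17 libraries. Chd4 gave 64.9 to 92.4% of Chd3, Chd4 and Chd5 together. Hdac2 gave 53.3 to 66.7% of Hdac1 and Hdac2, and Rbbp7 gave 62.4 to 84.2% of Rbbp4 and Rbbp7. Gatad2a gave 60.3 to 83.5% of the Gatad2 pair and Mbd3 gave 64.6 to 88.1% of Mbd2 and Mbd3. The MTA scaffolds were the exception, with Mta1 at 31.3 to 56.3%, Mta2 at 36.9 to 60.8% and Mta3 at 4.52 to 11.8% of their sum. Counted in UMIs of the day 7 single cells, which are not scaled by transcript length, 2 of these orders turned in the BMP4+ sample: Hdac1 was 52.2% of the Hdac1 and Hdac2 pair, and Mta3 was 35.8% of the MTA scaffolds, beside 35.7% for Mta1 and 28.5% for Mta2. Of the 5 further subunits, Chd3 was at 6.91 to 24.0 FPKM, Gatad2b at 5.78 to 19.4, Mbd2 at 11.3 to 40.6 and Cdk2ap1 at 69.9 to 166, while Chd5 was close to 0.

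Across the 17 libraries 8 of the 10 subunits had a smaller ratio of highest to lowest value than most genes, and Mta1 and Mta3 had a larger one. The highest value of a member was a median of 2.27 times its lowest, against 3.28 times over 8661 genes with a mean of at least 5 FPKM that were detected in every library. Mta2 was the steadiest, at 32.01 to 50.5 FPKM, a ratio of 1.58 that was larger than that of 1.82% of those genes. Mta1 varied most, from 16.6 to 73.6 FPKM, a ratio of 4.44 that exceeded that of 66.3% of genes, and Mta3, at a ratio of 3.85, exceeded 59.5% of them. The members did not all follow 1 profile: the Pearson correlation of a member with the mean of the other 9 over the 17 libraries, on the log2 scale, ran from 0.86 for Hdac2 and 0.85 for Mta1 down to 0.09 for Rbbp4 and -0.36 for Mbd3. Among 8962 genes with a mean of at least 5 FPKM, the 5 whose profiles were most like the mean of the 10 standardized members were Fkbp4, Uhrf1, H2afx, Ccna2 and Snrpa, with r of 0.96 to 0.97. The 17 libraries come from the JGES series and from the separate experiment with SALL4 alone. How far a difference between these sets enters the correlations was not tested. Libraries of the same series share a culture history, so these correlations describe the 17 libraries only. Sall4 exceeded all 10 members in each of the 17 libraries, at 194 to 971 FPKM or 5.32 to 26.96 times the members' median. The UMIs of the day 7 JGES single cells did not show this order. Over all cells without BMP4, Sall4 had 3983 UMIs, close to the lowest member, Mta3 at 3991, and below the others, up to Mbd3 at 20088. With BMP4 Sall4 had 15035, above Mta1 at 13152, Mta2 at 10492 and Mta3 at 13200. The other members were higher, up to Chd4 at 109011. The cause of this difference between FPKM and UMIs was not tested.

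During JGES reprogramming without BMP4 the ATPase was above its starting level on every later day and the deacetylases peaked at day 5. Chd4 was at 69.4 FPKM at day 0 and at 84.6, 85.8, 82.6 and 90.3 FPKM at days 1, 3, 5 and 7. Hdac2 was at 51.7 FPKM at day 0 and then at 48.1, 52.3, 60.7 and 56.1. Hdac1 went from 27.8 FPKM at day 0 to 31.0, 32.8, 47.3 and 28.0. The day 5 library was the highest of the BMP4- series for both deacetylases, and for Hdac1 it stood apart from the other 4 libraries, which lay between 27.8 and 32.8 FPKM. The same day 5 library held the highest BMP4- values of the scaffold Mta1, at 53.6 FPKM at day 0 and 36.8, 41.9, 73.6 and 58.3 after it, and of the histone chaperone Rbbp4, at 28.1 at day 0 and 31.97, 29.4, 49.3 and 41.2 after it. At day 5 against day 0, 2 of the 10 members were past 1.5-fold, Rbbp4 by 0.79 and Hdac1 by 0.75 on the log2 scale, where 35.3% of 14778 genes were past it in that direction. At day 3 it was Mta3 alone, at 0.67, where 28.5% of genes were past it upward. With libraries scaled by the median ratio over all genes, Hdac1 at 0.57 and Mta3 at 0.58 were just short of the threshold. By day 7 all 10 were above day 0, where 61.9% of all genes were, by a median of 0.24 against 0.26 over all genes, and none was past 1.5-fold, where 53.7% of genes were past it in either direction. With that scaling 7 of the 10 were above day 0, Mta2, Hdac1 and Mbd3 being slightly lower. At day 1 none was past it either, where 40.5% of genes were.

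With BMP4 the levels of several subunits were lower from day 3 on. Mta2, a scaffold, was lower with BMP4 on each day, at 38.8, 41.5, 36.8 and 33.6 FPKM against 49.1, 50.5, 48.3 and 49.1 without it. No single day was past 1.5-fold. Hdac2 was at 55.1, 43.1, 42.0 and 32.4 FPKM with BMP4, above the BMP4- value at day 1 and below it at the other 3 days. Mta1 was at 46.6, 34.6, 33.4 and 46.7 FPKM with BMP4, again above the BMP4- value only at day 1. These 3 genes code for scaffolds and a deacetylase. The ATPase did not follow them: Chd4 with BMP4 was at 81.6, 87.9, 96.9 and 87.8 FPKM, with changes against the BMP4- library of the same day of -0.05 to 0.23 on the log2 scale. Rbbp7 was at 97.1, 110, 111 and 154 FPKM with BMP4 against 128, 122, 145 and 135 without it, lower at days 1, 3 and 5 and higher at day 7. Gatad2a, the link to the remodeller, was at 31.1, 24.1, 24.6 and 25.1 with BMP4 against 34.2, 27.6, 31.5 and 33.8 without it, lower on each day. Mbd3, at 84.0, 73.8, 64.1 and 61.4 FPKM with BMP4 and 81.4, 72.1, 73.5 and 57.4 without it, was higher at 3 of the 4 days. Mta3 was at 6.97, 9.23, 9.38 and 9.38 FPKM with BMP4 and at 4.33, 11.4, 8.90 and 8.97 without it.

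**Figure D1:**
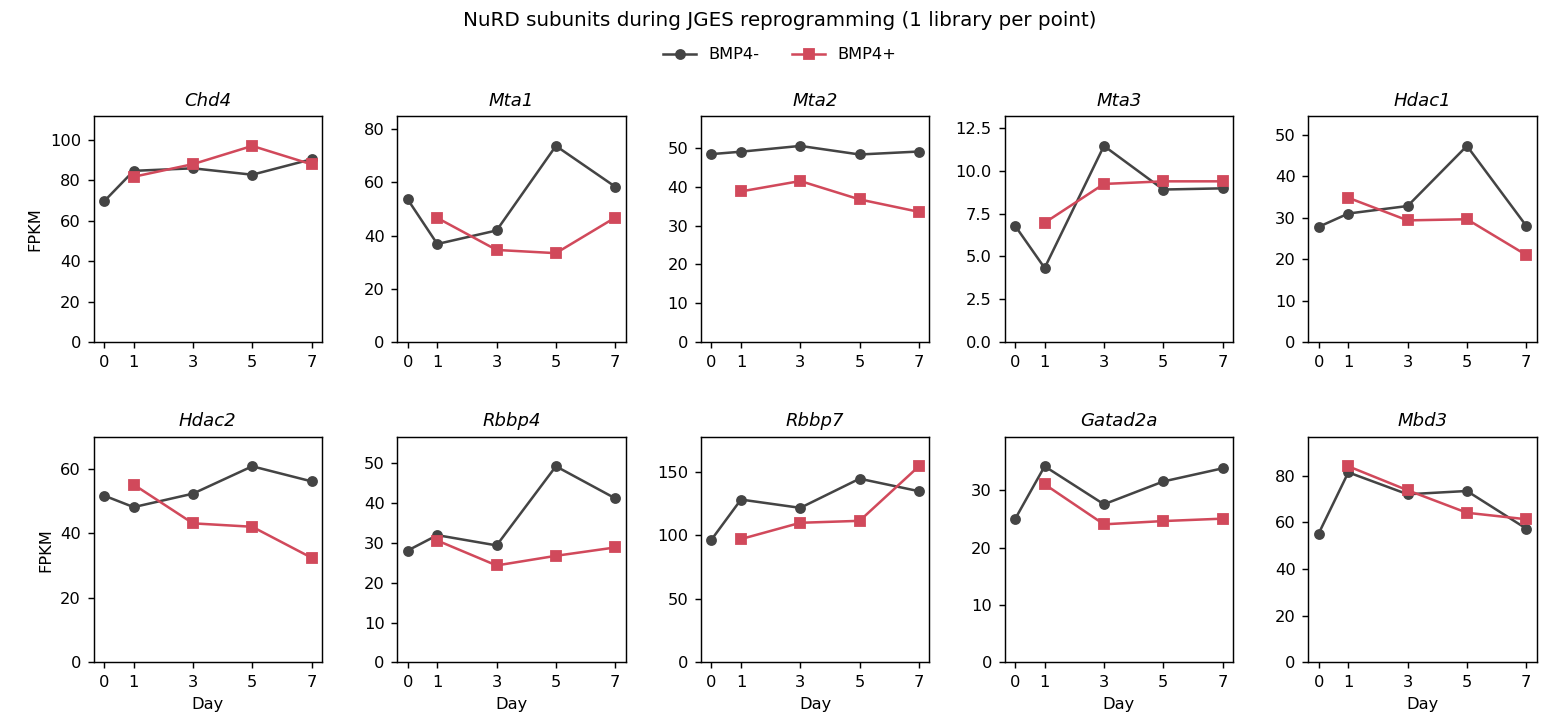
FPKM of each NuRD subunit by day of JGES reprogramming, 1 panel per gene, with 1 point per library and separate lines for BMP4- and BMP4+, the day 0 library being drawn on the BMP4- line. In the panel of Mta2 the BMP4+ points, at 33.6 to 41.5 FPKM, lie below the BMP4- points at every day.

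Counted over the members, BMP4+ was lower for 5, 8, 8 and 7 of 10 genes at days 1, 3, 5 and 7, where 51.9%, 57.4%, 60.1% and 57.0% of all genes were lower. The median changes were -0.00, -0.22, -0.38 and -0.36 on the log2 scale, beside -0.02, -0.09, -0.18 and -0.14 over all genes. With median ratio scaling the medians of days 5 and 7 were -0.20 and -0.24, and in the second deposited copy of the day 7 libraries the median was -0.20. The scaling also turned Chd4 at day 7, so that 4 of the 10 members were higher with BMP4 in place of 3. No member was past 1.5-fold at days 1 and 3, where 22.0% and 33.2% of all genes were past it in either direction. At day 5, Mta1 at -1.12, Rbbp4 at -0.86 and Hdac1 at -0.66 were past it downward, 3 of 10 members where 26.9% of 14928 genes were, so the share of members is close to that of all genes. Scaled by the median ratio, Hdac1 at -0.48 was not past it, and Mta3 at day 1 was, at 0.59. At day 7 it was Hdac2 alone, at -0.77, where 27.2% of genes were past it downward. Against day 0, which both series share, the BMP4+ libraries had Mbd3 past 1.5-fold at day 1 (0.60, beside 19.6% of genes upward), Mta1 at day 3 (-0.62, beside 19.2% downward) and day 5 (-0.67, beside 18.3%), and at day 7 Rbbp7 (0.67, beside 27.3% upward) and Hdac2 (-0.66, beside 19.1% downward). At day 5 the BMP4+ library had Rbbp4 at -0.07 and Hdac1 at 0.09 against day 0. The BMP4- day 5 library was the highest of its series for Rbbp4, Hdac1 and Mta1.

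Genes of the cell cycle differed on the same days. All 12 genes of a proliferation list were past 1.5-fold lower with BMP4 at day 5 (median -1.24) and 11 of 12 at day 7 (median -1.17). Of 9 subunits of other complexes that contain RBBP4 or RBBP7, such as Ezh2 and Suz12 of PRC2 and Chaf1a and Chaf1b of CAF-1, 7 were past it downward at day 5 and 6 at day 7. Pluripotent markers were lower 6 of 6 (median -4.75) and fibroblast markers higher 5 of 6 (median 1.99) at day 5. The part of proliferation and of cell composition in the subunits' levels was not tested, and in bulk samples fewer cells of a type and less RNA per cell cannot be told apart.

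The day 7 value of Rbbp4 without BMP4 depends on which deposited table it is read from. The 2 JGES libraries of day 7 stand in both bulk tables, and the second table gave 0.975 times the first over the median gene of the BMP4- library. Rbbp4 was 41.2 FPKM in 1 and 30.1 in the other, a ratio of 0.729, and it was the 1 gene of 14097 that was off that ratio by over 20%. Its BMP4 change at day 7 was therefore -0.50 in the first table and -0.09 in the second. The other 9 members kept the common ratio to within 1%.

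The 8 libraries of the second table, all of day 7, set the subunits against the factor set. The deacetylase Hdac2 had the widest spread as a ratio of highest to lowest value. It was at 30.8 FPKM in JGE, 14.5 in JGEO, 5.81 in JGESO and 54.6 in JGES without BMP4, and at 20.1, 20.1, 7.03 and 31.7 with it. Both JGESO libraries were below all others and both JGES libraries above them, and the highest value was 9.41 times the lowest, a ratio larger than that of 86.4% of 9109 genes. Hdac1 did not follow it. It was at 23.2, 50.003, 23.4 and 27.3 FPKM in JGE, JGEO, JGESO and JGES without BMP4 and at 33.1, 47.4, 33.7 and 20.5 with it, highest in both JGEO libraries. As a result the share of Hdac1 in the pair ran from 33.3 to 82.8%, with a median of 66.3%, where over the 17 libraries it had reached 46.7% at most.

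Rbbp7 separated JGES from the other sets as well. Without BMP4 it was at 47.5 FPKM in JGE, 28.0 in JGEO, 41.0 in JGESO and 132 in JGES, and with BMP4 at 32.3, 39.1, 38.9 and 151. Its close relative Rbbp4 was at 37.2, 50.2, 57.2 and 30.1 without BMP4 and at 44.4, 59.6, 54.1 and 28.2 with it. The order of its BMP4- values depends on the copy: the other table puts JGES at 40.2 FPKM at the common ratio, above JGE. Mbd3 was at 102, 143, 129 and 55.9 FPKM without BMP4 and at 102, 116, 102 and 59.996 with it, lowest in both JGES libraries. In Rbbp7, Mbd3, Hdac2 and this copy of Rbbp4, the 2 total RNA libraries lay on 1 side of the 6 polyA RNA libraries. The share of all genes that separate in this way is not given here. The kind of RNA, as labelled, cannot be told apart from the presence of Sall4 without Oct4. Chd4 had the smallest ratio of highest to lowest value of the 10 in this table, 1.68. It was at 65.9, 86.9, 56.6 and 88.0 FPKM without BMP4 and 85.7, 95.1, 61.4 and 85.8 with it.

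Among the scaffolds Mta1 had the widest range. Mta1 was at 30.8 FPKM in JGE, 54.1 in JGEO, 109 in JGESO and 56.8 in JGES without BMP4, and at 30.4, 44.5, 56.1 and 45.7 with it. Mta2 was at 34.8, 59.98, 64.4 and 47.9 without BMP4 and at 47.4, 54.8, 53.5 and 32.8 with it. Mta3 stayed between 4.70 and 11.4 FPKM and was highest in the 2 JGESO libraries. Gatad2a was at 25.8, 32.8, 56.4 and 33.0 FPKM without BMP4 and at 24.9, 32.2, 39.8 and 24.5 with it, also highest in JGESO.

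**Figure D2:**
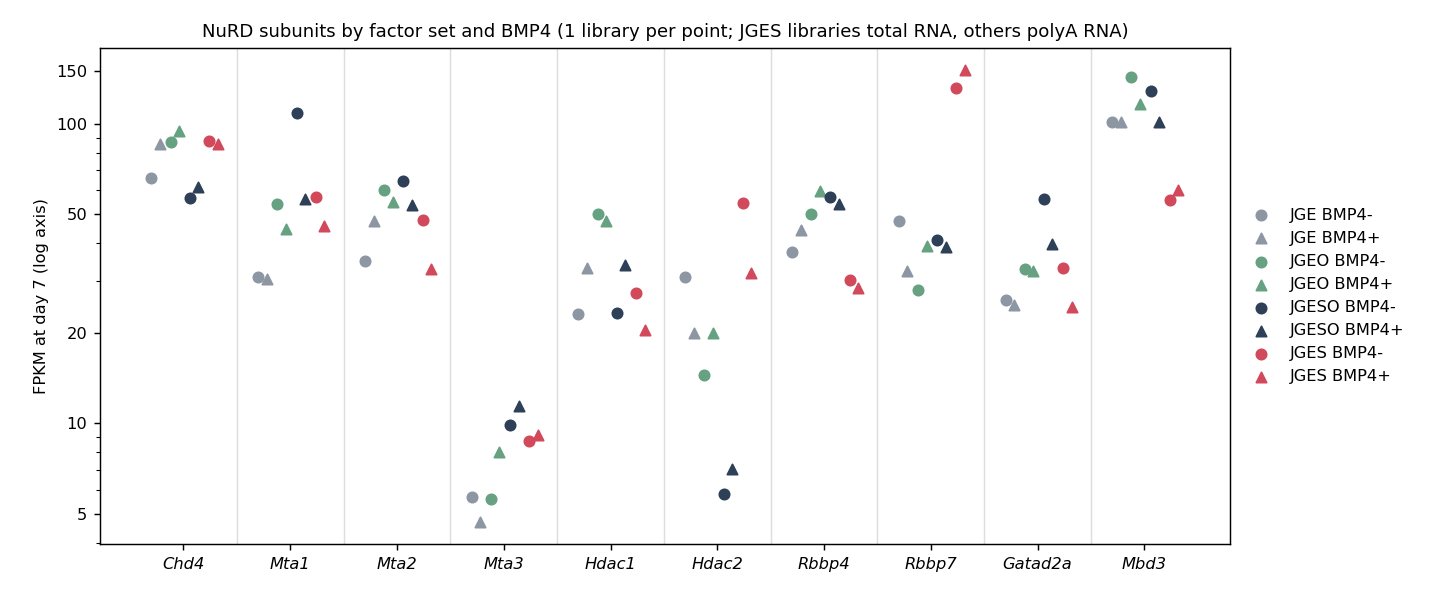
FPKM on a log axis of each subunit at day 7 in the 4 factor sets, with the genes along the horizontal axis, 1 point per library, circles for BMP4- and triangles for BMP4+. Hdac2 is lowest in the JGESO libraries, at 5.81 and 7.03 FPKM, and Rbbp7 highest in the JGES libraries, at 132 and 151 FPKM.

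Read as changes without BMP4, JGES against JGE had Rbbp7 at 1.45, Mta1 at 0.86 and Hdac2 at 0.81 and Mbd3 at -0.85 past 1.5-fold, 4 of 10 members where 59.4% of 16066 genes were past it in either direction. JGEO against JGE had Hdac1 at 1.07, Mta1 at 0.79, Mta2 at 0.77, Rbbp7 at -0.74 and Hdac2 at -1.04, 5 of 10 beside 45.9% of all genes. JGESO against JGEO had Mta1 at 1.00, Gatad2a at 0.76, Mta3 at 0.73, Chd4 at -0.61, Hdac1 at -1.07 and Hdac2 at -1.18, 6 of 10 beside 52.4%. After scaling by the median ratio Chd4, at -0.39, left this list and Rbbp7, at 0.75, joined it, and Mta3, at 0.64, joined that of JGES against JGE. JGESO against JGES, which differ by Oct4 and by the kind of RNA, had Mbd3 at 1.19, Mta1 at 0.93, Rbbp4 at 0.90, Gatad2a at 0.76, Chd4 at -0.63, Rbbp7 at -1.66 and Hdac2 at -3.03, 7 of 10 beside 71.3%. With Rbbp4 of JGES read from the other table its change was 0.50 and the count 6 of 10. Hdac2 was higher in the set with Sall4 where Oct4 was absent and lower where it was present. JGES and JGE differ by the kind of RNA too, which cannot be told apart from Sall4 there.

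With BMP4, JGES against JGE had Rbbp7 at 2.19, Mta3 at 0.84 and Hdac2 at 0.63 past 1.5-fold upward and Rbbp4 at -0.63, Hdac1 at -0.66 and Mbd3 at -0.75 downward, 6 of 10 beside 46.1% of genes. JGEO against JGE had all 10 higher, where 58.4% of genes were, with Mta3 at 0.66 alone past 1.5-fold, beside 27.4%. JGESO against JGEO had Chd4 at -0.62 and Hdac2 at -1.39, beside 52.4%, and JGESO against JGES had 7 of 10, beside 62.7%, Rbbp4 at 0.91, Mbd3 at 0.75, Hdac1 at 0.69, Mta2 at 0.69, Gatad2a at 0.68, Rbbp7 at -1.93 and Hdac2 at -2.03. Most of these counts with BMP4 depend on the scaling. Under median ratio scaling JGES against JGE lost Rbbp4 at -0.47, Hdac1 at -0.497 and Mbd3 at -0.58 and gained Mta1 at 0.74, leaving 4 of 10. JGEO against JGE had 9 of 10 higher, with Hdac2 lower at -0.12, and no member past 1.5-fold, Mta3 being at 0.55. JGESO against JGEO lost Chd4 at -0.47 and gained Mta3 at 0.60. JGESO against JGES lost Hdac1 and Mta2 at 0.55 and Gatad2a at 0.54 and gained Chd4 at -0.62, leaving 5 of 10. The comparisons share libraries, so that 1 library enters several of them. In the JGESO comparisons the change moved with the length of the transcript: for JGESO against JGES without BMP4 the median change was 0.38 among the genes of the lowest length quartile and -0.87 among those of the highest. After subtracting the median of genes of like length, the change of Chd4, a long transcript, in that comparison went from -0.63 to 0.25, and with BMP4 in JGESO against JGEO from -0.62 to 0.09. That of Hdac2 in JGESO against JGES without BMP4 went from -3.03 to -2.80. This adjustment was chosen after seeing the data.

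BMP4 itself shifted few subunits at day 7 in the other factor sets. The median change of the 10 was -0.01 in JGE, 0.05 in JGEO and -0.08 in JGESO, beside -0.05, 0.04 and 0.01 over all genes. Past 1.5-fold were Hdac2 in JGE at -0.59, where 24.6% of genes were past it in either direction, and Mta1 in JGESO at -0.95, where 25.8% were. In JGEO no member was past it, where 14.6% of genes were. Hdac2 was lower with BMP4 in JGE and JGES and higher in JGEO and JGESO, and whether these changes differ was not tested.

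Cells given SALL4 alone had most subunits at a lower level at the end of the course than at day 1. With SALL4-WT, Mbd3 was at 139, 92.8, 88.1 and 74.2 FPKM at days 1, 5, 9 and 11. Rbbp4 was at 53.2, 39.6, 28.3 and 27.9 FPKM, and Hdac1 at 37.3, 30.4, 22.3 and 20.04. All 3 were lower at each later day than at the day before. Mta1 was at 34.4, 24.9, 16.6 and 21.1 FPKM and Hdac2 at 42.6, 36.1, 36.1 and 29.8. Chd4 was nearly level at 52.4, 52.5, 47.9 and 46.5 FPKM, as was Mta3 at 4.26, 3.96, 4.37 and 4.28. Mta2 was at 41.6, 36.02, 32.01 and 32.7, Rbbp7 at 88.4, 82.0, 65.1 and 69.7 and Gatad2a at 21.7, 18.9, 18.5 and 16.0. At day 11 against day 1, 9 of 10 members were lower, where 48.0% of all genes were, with a median of -0.46 beside 0.04 over all genes. Rbbp4 at -0.91, Mbd3 at -0.89, Hdac1 at -0.86 and Mta1 at -0.68 were past 1.5-fold, 4 of 10 where 20.1% of 13673 genes were past it downward. At day 9 it was the same 4 genes, where 15.8% of genes were past it downward. All 12 proliferation genes were past 1.5-fold lower at day 11 than at day 1 (median -1.99) and 6 of 6 fibroblast markers higher (median 1.13), and the part of either in the subunits' levels was not tested.

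With SALL4-delN12 the change from day 1 to day 11 was smaller in size than with SALL4-WT for 8 of the 10 subunits, the exceptions being Mta3 and Gatad2a, as it was for 59.6% of 14383 genes. Mbd3 was at 120, 81.6, 93.4 and 86.4 FPKM, Rbbp4 at 45.3, 45.9, 42.5 and 36.6 and Hdac1 at 28.0, 24.6, 22.9 and 23.4. Each of these started below its SALL4-WT value at day 1 and ended above it at day 11. Mta1 was at 26.7, 22.2, 19.1 and 22.2 FPKM, Hdac2 at 40.5, 39.8, 36.02 and 35.5, and Chd4 at 45.4, 50.001, 44.4 and 48.7. Rbbp7, at 95.6, 93.5, 81.0 and 105 FPKM, was above its SALL4-WT value at all 4 days. Mta2 was at 36.2, 36.8, 35.99 and 34.1, Mta3 at 2.98, 4.49, 4.17 and 4.72, and Gatad2a at 29.2, 27.5, 18.5 and 20.5. At day 11 against day 1 the median of the 10 was -0.22 beside 0.03 over all genes and no member was past 1.5-fold, where 31.6% of genes were past it in either direction. At day 9 Gatad2a, at -0.63, was past it downward, where 10.8% of genes were, and at day 5 none was, where 23.3% of genes were past it in either direction. With SALL4-WT at day 5 none was past it either, where 25.9% of genes were.

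**Figure D3:**
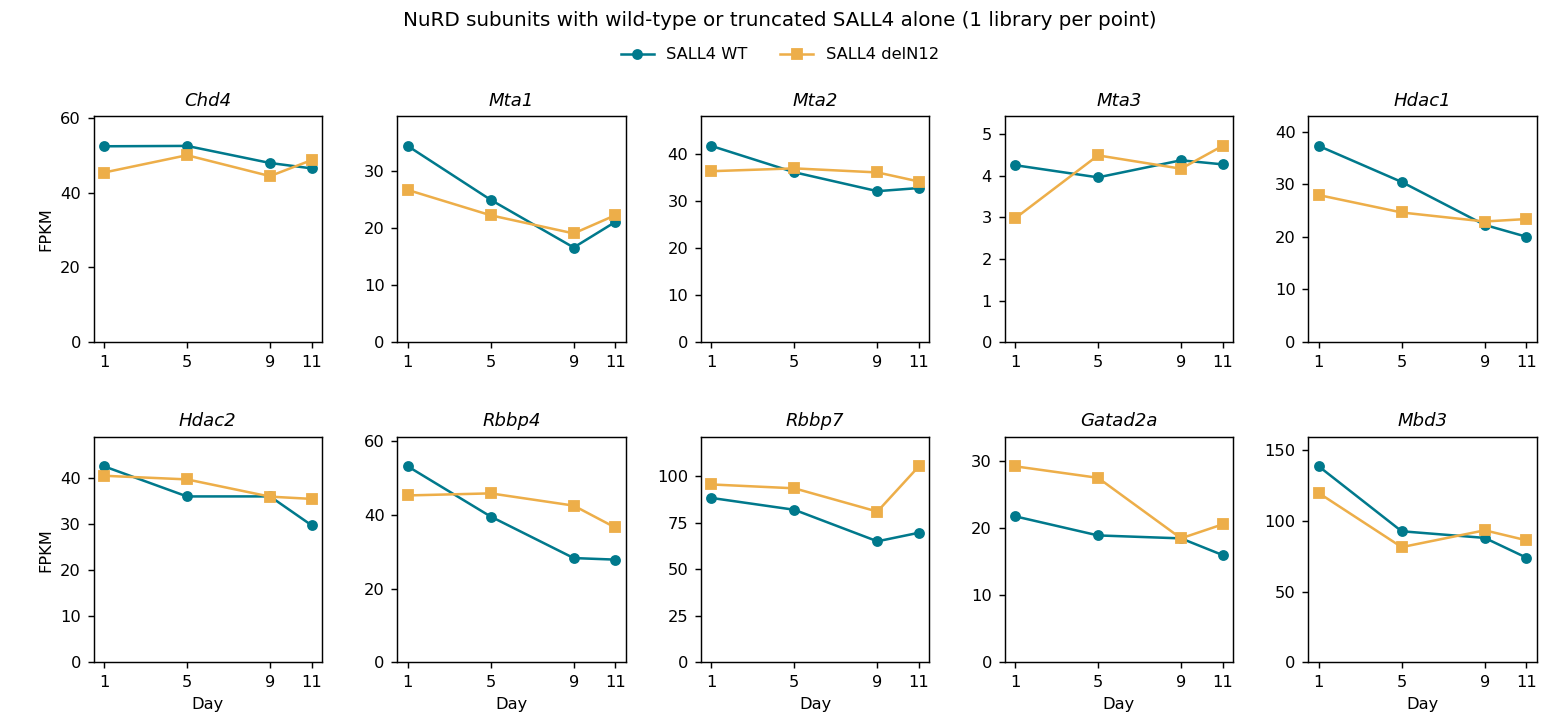
FPKM of each subunit at days 1, 5, 9 and 11 in cells given SALL4-WT or SALL4-delN12 alone, 1 panel per gene and 1 point per library. At day 11 the SALL4-delN12 point lies above the SALL4-WT point in all 10 panels, most widely for Rbbp7 at 105 against 69.7 FPKM.

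Set side by side on the same day, SALL4-delN12 was lower than SALL4-WT for 8 of 10 members at day 1, where 53.7% of all genes were lower, with a median of -0.21 beside -0.03 over all genes. It was higher for 6 at day 5 and 7 at day 9, where 48.9% and 52.7% of all genes were higher. At day 11 it was higher for all 10, where 50.4% of 13946 genes were higher, with a median of 0.22 beside 0.01 over all genes. The differences were small: Rbbp7 at 0.59 was the only member past 1.5-fold upward, where 15.6% of genes were, and it was 0.51 after subtracting genes of like length and not past the threshold with median ratio scaling either. At the other 3 days no member was past it in either direction, where 22.0% of genes were at days 1 and 5 and 25.6% at day 9. With genes of like transcript length subtracted, 8 of 10 were higher at day 11, while the share of all genes given above is unadjusted. In the same comparison 10 of 12 proliferation genes were past 1.5-fold higher (median 1.17), 6 of 6 primitive endoderm markers higher (median 3.41) and 4 of 6 fibroblast markers lower, and their part in the result was not tested. Of the other recruiters with an N-terminal motif, Sall1, Zfpm1 and Bcl11b were past 1.5-fold higher and Sall2 and Zfpm2 lower. Of the further NuRD subunits Mbd2, the alternative to MBD3, was past it downward, at 24.1 FPKM with SALL4-delN12 and 40.6 with SALL4-WT.

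The scRNA-seq samples of day 7 JGES cells resolve these levels by cell type. The BMP4+ sample has 11335 cells and 269277477 UMIs (unique molecular identifiers, each 1 captured transcript), and the BMP4- sample has 8685 cells and 123159447 UMIs, with 2 cell barcodes found in both. The cell types are those the authors deposited, and the label ParE was read as the study's primitive endoderm-like cells (PrECLCs). That label could also stand for parietal endoderm. Their 6 primitive endoderm markers were all past 1.5-fold above the intermediate cells in the BMP4+ sample, with Gata4 at 78.3 CPM against 1.55, the CPM being the UMIs of a gene scaled to a total of 1000000. The 6 endothelial markers were so in endothelial cells, 5 of 6 placenta markers in placenta-like cells, and in the BMP4- sample 6 of 6 pluripotent markers in pluripotent cells. The CPM values are those of UMIs summed over the cells of a type, and the intervals are exact 95% Poisson intervals that cover counting error only.

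Over all cells Chd4 and Rbbp7 had the largest BMP4 ratios of the 10. Chd4 was at 405 CPM with BMP4 and 140 without, a ratio of 2.89 (2.84 to 2.94), and Rbbp7 was at 295 and 127, a ratio of 2.32 (2.28 to 2.36). Rbbp4 had a ratio of 1.87, Hdac1 of 1.65, Gatad2a of 1.54 and Mta3 of 1.51. The other 4 were nearly equal in the 2 samples, with Hdac2 at 84.2 and 83.7 CPM, Mta1 at 48.8 and 49.9, Mta2 at 39.0 and 38.1 and Mbd3 at 159 and 163. The first 6 genes, past 1.5-fold higher, stand beside 49.7% of 10295 genes, and the members' median change of 0.61 beside 0.58 over all genes. In the same comparison 6 of 6 pluripotent markers were past 1.5-fold lower (median -6.37) and 6 of 6 primitive endoderm markers higher (median 3.08). Also past it were 5 of 5 measured endothelial and 4 of 6 fibroblast markers, all higher, and 6 placenta markers, 4 higher and 2 lower. The part of cell composition in these values was not tested. The BMP4+ cells were also deeper, at a median of 21205 UMIs against 12738, and after scaling by the median ratio of all genes, which lowered every change by 0.52, the members' median was 0.09. Chd4 at 1.01 and Rbbp7 at 0.70 were then the 2 members past 1.5-fold, and Hdac2, Mta1, Mta2 and Mbd3 lay at -0.49 to -0.55. Of the first 6 genes, the bulk libraries of the same day had Rbbp4 at -0.50, Gatad2a at -0.42, Hdac1 at -0.40, Chd4 at -0.04, Mta3 at 0.06 and Rbbp7 at 0.19 on the log2 scale. Before scaling, 4 of the 6 were thus lower with BMP4 there. Under median ratio scaling of the bulk libraries Chd4 turned higher, and the value of Rbbp4 depends on the deposited copy, as described above.

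Within the cell types that both samples hold, Chd4, Hdac1 and Rbbp4 were past 1.5-fold upward in each, and with median ratio scaling Chd4 alone was so. In PrECLCs Chd4 was at 422 CPM with BMP4 and 118 without, a ratio of 3.58 (3.13 to 4.10), and 6 of 10 members were past 1.5-fold upward, where 47.6% of 9638 genes were, the others being Rbbp4 at a ratio of 2.53, Hdac1 at 2.401, Mta3 at 2.27, Mbd3 at 1.58 and Gatad2a at 1.55. Mbd3 was nearly equal over all cells, and Rbbp7, second over all cells, was just short of 1.5-fold here, at 313 CPM without BMP4 and 469 with it. In intermediate cells it was 5 of 10, Chd4, Mta3, Hdac1, Rbbp4 and Rbbp7, beside 46.6%, and in endothelial cells 5 of 10, Chd4, Rbbp4, Hdac1, Rbbp7 and, at the threshold, Gatad2a, beside 45.2%. Proliferation genes past 1.5-fold upward in the same comparisons were 11 of 12 in PrECLCs (median 1.07), 10 of 12 in endothelial cells (median 1.05) and 2 of 12, with 2 lower, in intermediate cells, and 7 of 9 subunits of other RBBP4 or RBBP7 complexes were past it in PrECLCs. In intermediate cells 5 of 6 fibroblast and 4 of 5 measured placenta markers were past it upward. There 1 placenta and 4 of 4 measured pluripotent markers were past it downward. In PrECLCs 3 of 3 measured fibroblast markers were past it upward and 5 of 5 measured pluripotent markers downward. In endothelial cells 3 of 5 measured fibroblast markers were past it upward and 2 downward, with 4 of 5 measured pluripotent markers downward. Their part in the subunits' values was not tested. Mta1, at 39.6 CPM with BMP4 and 54.2 without, and Mbd3, at 136 and 164, were lower with BMP4 in intermediate cells. The shares of members are close to those of all genes, and the medians of 0.64, 0.53 and 0.52 in PrECLC, intermediate and endothelial cells stood beside 0.54, 0.51 and 0.50. With median ratio scaling the counts past 1.5-fold upward were 4 in PrECLCs (Chd4, Mta3, Hdac1 and Rbbp4), 4 in endothelial cells (Chd4, Hdac1, Rbbp4 and Rbbp7) and 1 in intermediate cells, where Mta1 at -0.88 and Mbd3 at -0.70 were then past it downward. The shares of all genes given here are those before scaling, so these scaled counts have no share beside them. Before scaling, 10 members were higher with BMP4 in PrECLCs, 10 in endothelial cells and 6 in intermediate cells, where 76.3%, 74.9% and 72.4% of genes were. With the scaling the counts were 7, 5 and 5.

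Within the BMP4+ sample 9 of the 10 subunits had their lowest CPM in intermediate cells. Rbbp7 was at 469 CPM in PrECLCs, 387 in placenta-like cells, 294 in endothelial cells and 222 in intermediate cells, and the intervals of these 4 values did not overlap. Rbbp4 was at 188 CPM in endothelial cells, 160 and 157 in placenta-like cells and PrECLCs, and 103 in intermediate cells, with the intervals of the middle pair overlapping. Gatad2a was at 127, 119, 115 and 68.0 CPM in endothelial, placenta-like, PrECLC and intermediate cells. Chd4 differed least as a ratio of highest to lowest value, at 479 CPM in placenta-like cells, 443 in endothelial cells, 422 in PrECLCs and 385 in intermediate cells. Hdac2 was at 107 CPM in PrECLCs, 82.8 in endothelial cells, 76.8 in intermediate cells and 70.05 in placenta-like cells, and in CPM it was the only member below the intermediate level in any of the 3 types.

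Mta3 marked the placenta-like cells. It was at 147 CPM there (140 to 154), 3.88 times the 37.8 CPM of intermediate cells, while PrECLCs were at 57.7 and endothelial cells at 52.3. The other scaffolds did not share this: Mta1 was highest in PrECLCs at 66.5 CPM, with 59.2, 52.4 and 39.6 in endothelial, placenta-like and intermediate cells, and Mta2 was at 44.1, 48.0, 49.4 and 34.3 CPM in PrECLC, endothelial, placenta-like and intermediate cells. Hdac1 was at 105, 112, 123 and 80.5 CPM and Mbd3 at 196, 175, 237 and 136 in the same order of types.

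Counted against the intermediate cells of the BMP4+ sample, 10 of 10 members were higher in PrECLCs, where 56.7% of 10348 genes were, and 5 were past 1.5-fold, Rbbp7, Gatad2a, Mta1, Mta3 and Rbbp4, where 27.5% of genes were. In endothelial cells 10 of 10 were higher beside 50.8% of genes, and Gatad2a and Rbbp4 were past 1.5-fold beside 21.9%. In placenta-like cells 9 of 10 were higher beside 59.6%, and 6 were past 1.5-fold beside 29.8%. The members' medians of 0.56, 0.47 and 0.62 stood beside 0.13, 0.01 and 0.21 over all genes. With median ratio scaling 9, 10 and 9 members were higher in the 3 types, Chd4 being lower in PrECLCs at -0.11. The members then past 1.5-fold were Rbbp7 alone in PrECLCs at 0.84, Mta3 alone in placenta-like cells at 1.66 and, as before, Gatad2a and Rbbp4 in endothelial cells. In each of the 3 types all 12 proliferation genes were past 1.5-fold above the intermediate cells, with medians of 1.46 to 1.57, as were 7 of 9 measured subunits of other RBBP4 or RBBP7 complexes in PrECLCs, 7 of 8 in endothelial and 8 of 8 in placenta-like cells, while all 6 fibroblast markers were past it downward. Their part in the subunits' levels was not tested. Median depth moved with the type too, at 28906 UMIs per cell in placenta-like cells, 23772.5 in PrECLCs, 21763 in endothelial cells and 19594 in intermediate cells. With every cell thinned to 4000 UMIs, so that no cell was left out, at least 5 of the 10 subunits had a UMI in 49.6% of placenta-like cells, 41.4% of PrECLCs, 35.4% of endothelial cells and 18.1% of intermediate cells. Thinning evens out the depth and not the changes over all genes given above. No such share was computed for other genes of like level, so this order is not shown to be particular to the subunits.

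**Figure D4:**
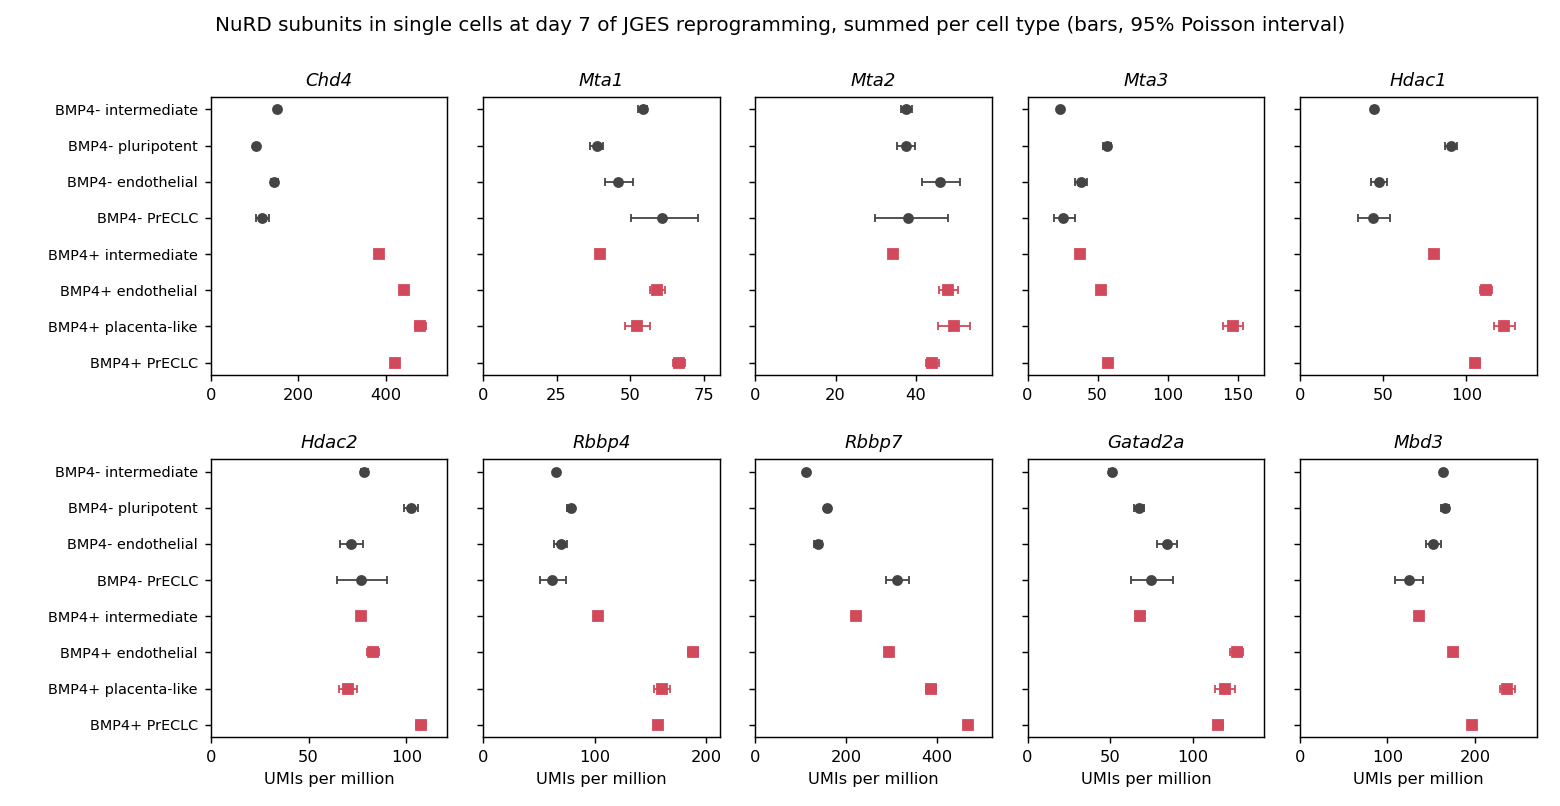
CPM of each subunit by deposited cell type in the BMP4+ and BMP4- samples of day 7, with exact 95% Poisson intervals that cover counting error only. Mta3 in placenta-like cells, at 147 CPM, and Rbbp7 in PrECLCs, at 469 CPM with BMP4 and 313 without, stand above the intermediate cells.

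In the BMP4- sample the 142 PrECLCs had Rbbp7 at 313 CPM (288 to 339) against 111 in intermediate cells, a ratio of 2.82 (2.59 to 3.07), and this was the only member past 1.5-fold, where 21.2% of 9667 genes were past it upward. The median of the 10 in these cells was -0.00. Pluripotent cells had Hdac1 at 90.8 CPM against 44.7 and Mta3 at 56.9 against 23.3, both past 1.5-fold, where 20.2% of genes were. In the same comparison 9 of 12 proliferation genes (median 0.71) and 6 of 8 measured subunits of other RBBP4 or RBBP7 complexes were past it upward, and their part was not tested. In the same cells Hdac2 was at 102 against 78.5 CPM, and Chd4, at 105 against 153, and Mta1, at 38.6 against 54.2, were lower. Endothelial cells had Mta3 at 38.0 and Gatad2a at 84.3 CPM past 1.5-fold, where 10.4% of genes were. Thinned to 4000 UMIs, 13.6% of pluripotent cells, 9.86% of PrECLCs, 8.28% of endothelial cells and 7.42% of intermediate cells had a UMI of at least 5 subunits, again without a share for other genes of like level. Sall4 itself was at 149.3 CPM in PrECLCs, 48.0 in placenta-like, 32.8 in endothelial and 25.7 in intermediate cells with BMP4, and at 86.8, 15.2 and 22.8 in PrECLC, endothelial and intermediate cells and 60.5 in pluripotent cells without it.

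The genes of the subunits were next compared in the CUT&Tag and ATAC-seq peak lists, taking any peak within 2 kb of an annotated start. A SALL4 peak lay there at 10 of 10 members with SALL4-WT, where 57.3% of 21897 protein-coding genes and 90.2% of the 5332 genes at 10 FPKM or more had one. With SALL4-delN12 it was 8 of 10, where 44.2% of genes and 71.6% of those at 10 FPKM or more had one, and Mta1 and Mta3 were without. The score of the highest peak, which MACS computes from its p-value, was 421 with SALL4-WT and 185 with SALL4-delN12 at Mbd3, 413 and 146 at Gatad2a, and 372 and 300 at Rbbp4. These 3 had the highest SALL4-WT scores of the 10. Scores were 271 and 175 at Hdac2, 184 and 77.9 at Hdac1, 111 and 75.8 at Mta2, and 85.8 and 56.6 at Chd4. Rbbp7 was the only member with the higher score in SALL4-delN12, 184 against 172, where 26.9% of 8967 genes with both peaks were higher. Over those genes the median ratio was 0.717. At Gatad2a and Mta2 the highest peaks of the 2 lists lay at different starts. At the place of the SALL4-WT peak, the SALL4-delN12 list had a score of 129 at Gatad2a and no peak at Mta2. Scores depend on the depth of each list, which is unknown.

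H3K27ac peaks lay within 2 kb of a start at all 10 members in both lists, where 50.9% of genes and 89.5% of those at 10 FPKM or more had one with SALL4-WT, and 60.6% and 93.7% with SALL4-delN12. The mark scored higher with SALL4-delN12 at every member, as it did at 97.0% of 10892 genes, by a median ratio of 2.02, and the SALL4-delN12 list held 45599 peaks against 19841. Mbd3 stood out among the members, at 111 and 574, a ratio of 5.16 that was larger than that of 99.1% of genes. Hdac2 had the highest score of the 10 in both, at 638 and 1166. Scores were 374 and 526 at Gatad2a, 270 and 680 at Rbbp4, 260 and 496 at Mta3, 213 and 506 at Rbbp7, 140 and 324 at Hdac1 and 91.4 and 240 at Mta1. Mta2, at 126 and 145, and Chd4, at 163 and 208, had the smallest ratios of the 10, below those of all but 5.11% and 7.68% of genes.

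**Figure D5:**
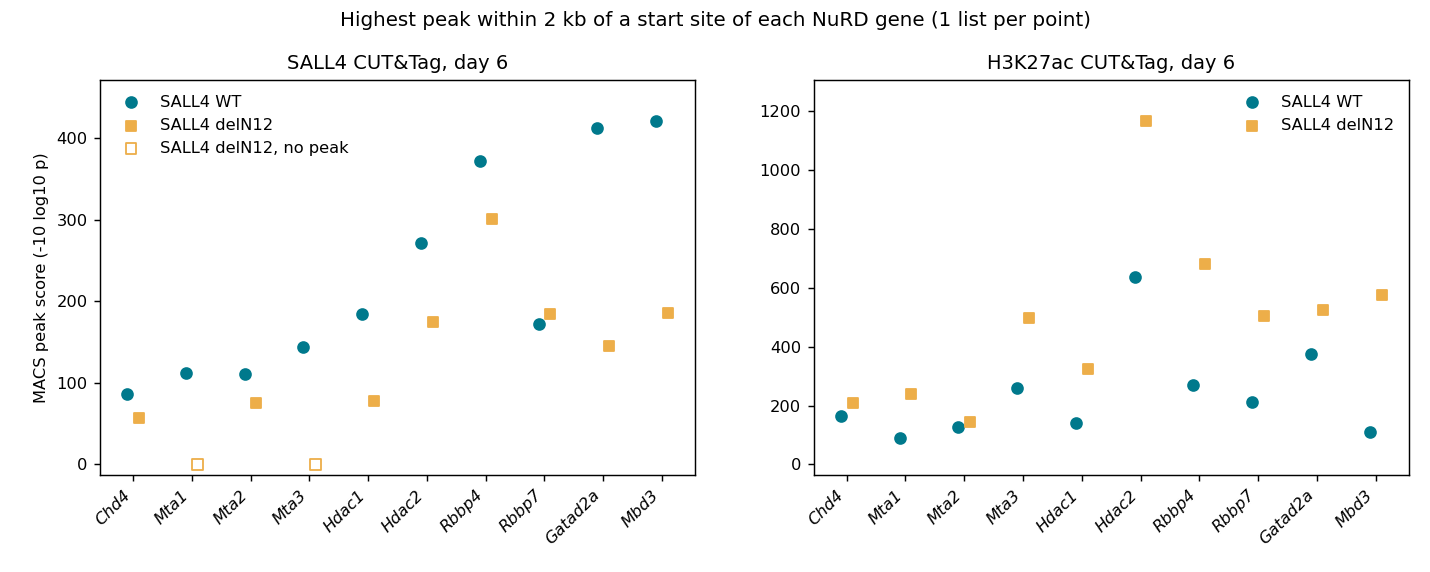
Score of the highest peak within 2 kb of a start for each subunit, in SALL4 and H3K27ac CUT&Tag of cells given SALL4-WT or SALL4-delN12, with 1 point per peak list and open squares at 0 where a list had no peak. In the SALL4 panel Rbbp7 is the 1 gene whose SALL4-delN12 score, at 184, is the higher one.

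ATAC-seq peaks were present at all 10 members in MEFs, where 70.2% of genes and 98.1% of those at 10 FPKM or more had one. They were also present at all 10 in every SALL4 list except that of SALL4-delN12 at day 1. In those lists 64.2 to 68.4% of genes and 96.5 to 98.0% of those at 10 FPKM or more had one. With SALL4-delN12 at day 1 Mta1 was without a peak, where 62.5% of genes and 96.3% of those at 10 FPKM or more had one. Gatad2a had the highest ATAC score in every list, at 1621 to 3100, and Mta3 and Mta1 had the lowest 2, with Mta3 at 62.2 to 157. Mta1 was the member whose ATAC score was lowest relative to SALL4-WT at days 5, 9 and 11. It was at 64.7 with SALL4-WT and without a peak with SALL4-delN12 at day 1, and at 262 and 66.7 at day 5, 239 and 53.0 at day 9 and 293 and 92.6 at day 11. The ratios at days 5, 9 and 11 were smaller than those of all but 3.11%, 0.151% and 2.31% of genes with both peaks.

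With SALL4-WT the highest SALL4 and ATAC peaks of Mta1 lay inside an intron, while with SALL4-delN12 the highest ATAC peaks lay at the start of the gene, so that the scores above compare different positions. The H3K27ac peaks lay within 2 kb of the start of the gene in both. The site was singled out after its values were seen. The SALL4-WT peak at chr12:113132257-113133054 (mm10) was centred 34377 bases into the gene, within 2 kb of an annotated internal start, and overlapped no exon of the GENCODE annotation. An ATAC peak overlapped it in MEFs, at a score of 272, and in all 4 SALL4-WT lists, and none did in the 4 SALL4-delN12 lists. Neither H3K27ac list had a peak there. Of 69475 SALL4-WT peaks, 32220 overlapped an ATAC peak in all 4 SALL4-WT lists, and 3.31% of those overlapped none in the 4 SALL4-delN12 lists. The middle 300 bases of this peak, chr12:113132506-113132805 on the plus strand of GRCm38.p6, are printed because both SALL4 and open chromatin were listed there with SALL4-WT and not with SALL4-delN12.
Mta1 intron: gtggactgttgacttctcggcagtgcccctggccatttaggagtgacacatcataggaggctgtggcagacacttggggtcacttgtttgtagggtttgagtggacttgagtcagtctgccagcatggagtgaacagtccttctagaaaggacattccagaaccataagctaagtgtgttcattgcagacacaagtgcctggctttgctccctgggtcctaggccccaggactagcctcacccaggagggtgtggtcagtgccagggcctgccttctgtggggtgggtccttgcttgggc
The stretch has 1 CpG and a GC content of 55.7%, and it holds neither the SP/KLF box nor AATATT on either strand, so no letter is in capitals.

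The promoters of the subunits were read from the RefSeq table of GRCm38.p6 as the 250 bases before each start. It matched 8 of the 10 members with 10 starts, while Hdac1 and Mta3 had no entry. Shown are Mbd3 (chr10:80399532-80399781, minus strand) and Gatad2a (chr8:69996385-69996634, minus strand), which had the highest SALL4-WT scores and at the same place lower ones with SALL4-delN12, and Rbbp7 (chrX:162760122-162760371, plus strand), the only member with a higher score there. Capitals mark the SP/KLF box, which reads GGGCGG on one strand and CCGCCC on the other, and the CCAAT box, which reads ATTGG on the other strand.
Mbd3: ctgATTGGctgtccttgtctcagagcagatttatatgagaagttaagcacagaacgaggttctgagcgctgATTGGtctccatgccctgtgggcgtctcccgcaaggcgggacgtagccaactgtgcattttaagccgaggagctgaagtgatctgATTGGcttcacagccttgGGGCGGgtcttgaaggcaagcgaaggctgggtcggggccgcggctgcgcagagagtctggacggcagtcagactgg
Gatad2a: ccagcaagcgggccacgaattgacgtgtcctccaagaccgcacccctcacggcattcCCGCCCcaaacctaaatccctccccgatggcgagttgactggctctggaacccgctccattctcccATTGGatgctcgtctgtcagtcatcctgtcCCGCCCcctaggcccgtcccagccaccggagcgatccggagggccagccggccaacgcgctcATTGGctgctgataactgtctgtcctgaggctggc
Rbbp7: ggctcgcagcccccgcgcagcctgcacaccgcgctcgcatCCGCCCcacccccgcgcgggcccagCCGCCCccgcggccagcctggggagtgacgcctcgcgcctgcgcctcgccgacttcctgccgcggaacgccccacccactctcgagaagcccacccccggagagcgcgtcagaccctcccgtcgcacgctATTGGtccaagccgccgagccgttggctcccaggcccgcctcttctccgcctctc
Mbd3 holds 3 CCAAT boxes and 1 SP/KLF box, Gatad2a 2 of each, and Rbbp7 1 CCAAT box and 2 SP/KLF boxes. Over the 10 starts, GGGCGG was found at 10, where 32.7% of 32851 promoters of the same length hold it, and the CCAAT box at 5, where 33.8% do. The ETS core, CCGGAA on one strand and TTCCGG on the other, was found at 2 starts beside 12.03% of promoters. The E box, CACGTG on both strands, was at 1, that of Rbbp4, beside 6.02%. An AT-rich word that SALL4 is known to favour, AATATT on both strands, was at none of the 10, beside 6.17%. No motif overlapped another of a different kind in the 3 printed sequences. The members' promoters were rich in GC, at a median of 67.6% against 52.4% over all promoters, and had a median of 23.5 CpG against 6. That of Mta1, at 80.8% GC and 39 CpG, had more GC than 99.0% of promoters. These matches describe the letters of the window and not binding.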

How the data were processed

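Bulk RNA-seq, scRNA-seq, ATAC-seq and CUT&Tag of reprogramming mouse cells were analysed, with 1 sample per group as the labels give it. The authors trimmed bulk reads with Trim Galore 0.6.4, mapped them to mm10 with HISAT2 2.2.1 and deposited FPKM from StringTie 2.2.1. For scRNA-seq the authors deposited a UMI count for each gene and cell, from STARsolo (STAR 2.7.6a), with cell types, and 10749 columns of cells from other work were not used. The deposited peak score is that of MACS 1.4.2, after mapping with Bowtie2 2.4.5 and filtering with SAMtools 1.16.1, and its lowest value was 50. For CUT&Tag the authors merged replicates before peak calling. Whether this was done for ATAC-seq is not given in the sources used here. The depth behind FPKM and peaks is unknown.

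Values were compared as log2(FPKM + 1) over genes at 1 FPKM or more in either library, and in single cells as CPM of summed UMIs over genes at 5 CPM or more in either sum. A gene was past the threshold at 1.5-fold. Shares of changed genes over all genes are those before any scaling or length adjustment. Intervals, given for some CPM values and ratios, are exact 95% ones. Peaks were matched within 2 kb of any GENCODE start. Doublets were not called. The scripts used Python 3.11.15, pandas 2.3.3, NumPy 2.4.6 and SciPy 1.17.1 and were tested on simulated data. Alternatives were another pseudocount, filter, threshold and scaling, the second copy of the day 7 libraries, matched transcript length and the other copy of Rbbp4 (both chosen after seeing the data), leaving out the 6% of cells with most UMIs, and other peak windows and scores. The rule for named genes took all 10 members, the 5 further subunits, the 8 recruiters and the 5 most alike genes. Of these the members are given in each comparison by values or by counts, the further subunits and recruiters in fewer comparisons, and other lists by counts. Of the recruiters Sall3 was under 2 FPKM in every library. The members and lists were chosen with earlier results of these data known.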

Additional observations from a re-analysis of the deposited data

Results flagged for a closer look

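Hdac2 changed in opposite directions when Sall4 was added to 2 factor sets. Without BMP4 its log2 change was 0.81 for JGES against JGE and -1.18 for JGESO against JGEO, and with BMP4 it was 0.63 and -1.39, so that both libraries of each set moved the same way. The difference was not tested, since each condition has 1 library, and the JGES libraries are labelled total RNA and the other 3 sets polyA RNA, which cannot be told apart from the factor set.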

How the results depend on the processing

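No paired analysis was possible because the groups compared hold 1 library each and share fewer than 2 replicate numbers, and for the same reason no replicate could be left out. A fit over the days with the day as a block, which would take days as replicates, was not made. Of 133 alternative values for 44 medians over the members, 9 changed sign, all for medians of at most 0.085 in size, and among the single-gene changes past 1.5-fold 2 reversed, Chd4 under matched transcript length (added after seeing the data) in JGESO against JGES without BMP4 at 0.25 and JGESO against JGEO with BMP4 at 0.093. Of 100 member changes in single cells, 14 turned sign under median ratio scaling, none of them past 1.5-fold beforehand.

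With median ratio scaling the members' median BMP4 change in JGES was -0.20 at day 5 and -0.24 at day 7, and day 5 against day 0 without BMP4 was 0.21. Under that scaling, without BMP4, JGES against JGE was 0.54, JGEO against JGE 0.29 and JGESO against JGEO 0.36. With BMP4, JGES against JGE was 0.16, JGEO against JGE 0.19, JGESO against JGES 0.35 and JGESO against JGEO 0.068. In single cells it gave a BMP4 change of 0.093 over all cells, 0.023 in endothelial cells, 0.11 in intermediate cells and 0.077 in PrECLCs, and against intermediate cells 0.32 for PrECLCs and 0.33 for placenta-like cells with BMP4 and -0.10 for PrECLCs without it. With matched transcript length the BMP4 change in JGES was -0.26 at day 5, -0.25 at day 7 and -0.085 in the second table, and days 3, 5 and 7 without BMP4 against day 0 were 0.061, 0.12 and 0.021. JGESO against JGES was then 0.45 without and 0.23 with BMP4, JGESO against JGEO 0.46 and 0.16, and SALL4-WT day 11 against day 1 -0.60. The second copy of the day 7 libraries gave -0.20 for BMP4 in JGES, and leaving out the 6% of cells with most UMIs gave 0.77 for BMP4 in PrECLCs.

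At 2-fold in place of 1.5-fold, member changes past the threshold numbered 0 in place of 3 for BMP4 by factor set, 1 in place of 4 for BMP4 in JGES, 0 in place of 8 over JGES time, 1 in place of 9 over SALL4 time, 0 in place of 1 for SALL4-delN12 against SALL4-WT and 12 in place of 38 for an added factor. SALL4-delN12 against SALL4-WT had 0 with median ratio scaling, 0 with matched length and 2 with a pseudocount of 0.1, and JGES time had 5 with matched length. With peaks scoring at least 100, 5 members had a SALL4 peak with SALL4-delN12, beside 31.0% of genes and 49.8% of those at 10 FPKM or more. Paralog shares from UMIs were, with BMP4, 35.7% for Mta1, 52.2% for Hdac1, 30.4% for Rbbp4 and 66.8% for Mbd3, and without it 41.4%, 40.1%, 35.2% and 91.5%, with Chd4 at 80.4%. From FPKM they were 52.1%, 39.3%, 15.8% and 75.7%, and 50.1%, 33.3%, 23.4% and 79.0%, with Chd4 at 87.5%. The cause of these shifts was not tested.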
